A study of Danio rerio with 3 samples.

Results

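The genes described here are 10 immediate early genes of the zebrafish: fosab, fosb, jun, junba, junbb and atf3, which encode subunits of AP-1 and related dimers, the zinc finger factor gene egr1, the nuclear protein genes ier2a and ier2b, and btg2. They were taken by symbol from the gene table, where all 10 were present once among 29077 genes. fosab carries the identifier ENSDARG00000031683, jun ENSDARG00000043531, egr1 ENSDARG00000037421 and ier2a ENSDARG00000099195. The question was how much of each transcript was found in radial glia, the neural stem cells of this brain, in subsets of these cells and in the other cell classes of the same sort, and how far the 3 libraries differed.

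Immediate early genes are transcribed within minutes of a stimulus, without a need for new protein, because the factors that switch them on are already in the cell. Fos and Jun proteins pair through leucine zippers into AP-1 dimers that bind DNA, and Egr1, Atf3 and Ier2 also act in the nucleus, while Btg2 restrains cell division in mammals and promotes the shortening of mRNA tails. In brain tissue these genes are known as markers of neuronal firing, of growth factor and injury signals, and of enzymatic dissociation into single cells. The part of dissociation in the levels below was not tested, since every cell went through it.

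The samples were 3 single-cell libraries of telencephalon from Tg(sox2:gfp) zebrafish aged 12 weeks. All were treated with LY, a gamma-secretase inhibitor that blocks Notch signalling, so every group below shares this treatment. The sample description gives 48 hours in LY and the methods a shorter time. Libraries from DMSO-treated fish were not analysed here, so nothing below compares treated with untreated cells. Each replicate pooled the fish of 1 sorting day, on which the telencephalon was cut to enrich the pallium, dissociated and sorted, and GFP-positive cells, which include the stem cells, were mixed with GFP-negative cells. Sorting day, fish pool and library are therefore the same unit and cannot be told apart.

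The libraries held 8143, 6205 and 5349 barcodes with 15050320, 13048298 and 12104324 UMIs (unique molecular identifiers, the counted transcripts), and medians of 1541 to 1676 UMIs per barcode. After filters on quality and doublets, 17842 cells were kept, and 147 of 17694 different barcodes among them occurred in more than 1 library. Cells were put into classes by UMIs of marker genes that include none of the 10 genes: 2000 radial glia, 1650 cycling cells, 6404 neurons, 1141 oligodendrocyte precursor cells, 278 oligodendrocytes and 265 macrophages, with 6104 cells in no class. Of the markers held out of these gates, 5 of 5 were highest in radial glia, 8 of 8 in cycling cells, 6 of 7 in neurons (all but map1aa), 2 of 3 in oligodendrocyte precursor cells (all but pdgfra), 3 of 3 in oligodendrocytes and 5 of 5 in macrophages. The macrophage class also held lymphocyte marker UMIs, with sums between 31.0 and 102 per 1000000 UMIs over the libraries, against at most 0.942 in any other class. Haemoglobin UMIs from erythrocytes ranged from 12.5 to 2246 per 1000000 UMIs over the classes and libraries, and the part of such free RNA in the values below was not tested.

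Levels are CPM, the UMIs of a gene per 1000000 UMIs of the class in that replicate, given for replicates 1, 2 and 3 in this order. A UMI is counted once per transcript end. Levels were compared between classes for 1 gene or for the sum of the 10. Where total UMIs of the genes are compared below, they serve as a guide to counting error. Counting error was small for the frequent genes: in radial glia of replicate 1 the level of fosab, 2155, came from 3419 UMIs and had an exact 95% Poisson interval of 2083 to 2228. It was wide for rare ones: in macrophages of replicate 1 the level of atf3, 125, came from 10 UMIs, with an interval of 59.8 to 229. These intervals cover counting error only.

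Macrophages held the most of these transcripts and oligodendrocytes the least, with the other 4 classes between them. Summed over the 10 genes the level was 12208, 8987 and 9554 in macrophages, 4296, 4709 and 4120.2 in oligodendrocyte precursor cells, 3212, 4639 and 2734 in neurons, 3880.3, 4947 and 3229 in cycling cells, 968, 1792 and 923 in oligodendrocytes, and 4953, 5591 and 3197 in radial glia. The ranges of radial glia, oligodendrocyte precursor cells, cycling cells and neurons overlapped one another, whereas macrophages lay above every other class and oligodendrocytes below every other class in 3 of 3 replicates.

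**Figure D1:**
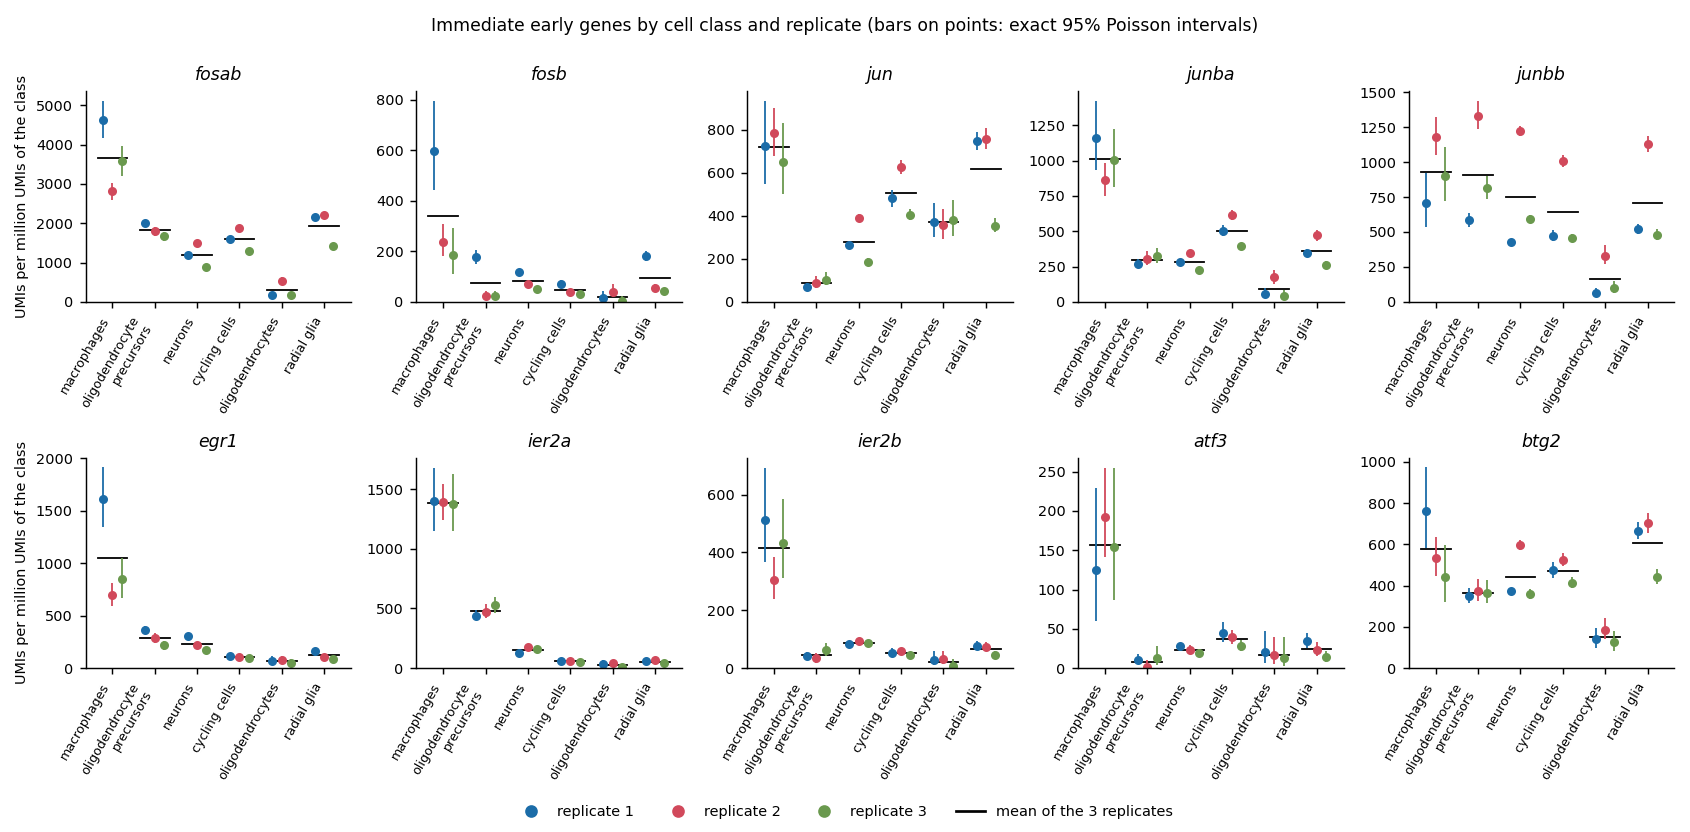
Levels of each gene in UMIs per 1000000 UMIs of the class (vertical axis, from 0, a separate scale for each gene) in 6 cell classes. Points are replicates with exact 95% Poisson intervals and black lines are means of 3 replicates. For ier2a the macrophage points sit between 1372 and 1397, above all other classes, while the lowest points for jun, 69.8 to 104, are those of oligodendrocyte precursor cells.

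Each class was tested against radial glia with edgeR on UMIs summed per class and replicate, with the replicate as a block, over 11502 genes and with Benjamini-Hochberg adjusted p under 0.05 as the threshold. The 5 tests share the same radial glia. In macrophages 8 of the 10 genes were higher and 0 lower, where 12.8% of all tested genes were higher and 18.3% lower. In oligodendrocyte precursor cells 3 were higher and 4 lower, with 21.4% and 22.2% of all genes. In neurons 2 were higher and 4 lower, with 30.1% and 28.4% of all genes, and in cycling cells 2 were higher and 2 lower, with 20.7% and 22.0% of all genes. In oligodendrocytes 0 were higher and 8 lower, with 12.3% and 18.0% of all genes. The median log2 fold change of the 10 genes was 1.76 in macrophages, -0.20 in oligodendrocyte precursor cells, -0.13 in neurons, -0.24 in cycling cells and -1.55 in oligodendrocytes. Over all tested genes it was -0.39 in macrophages and -0.21 in oligodendrocytes and within 0.08 of 0 in the other 3 tests, so the values given for those 2 classes include this shift.

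**Figure D2:**
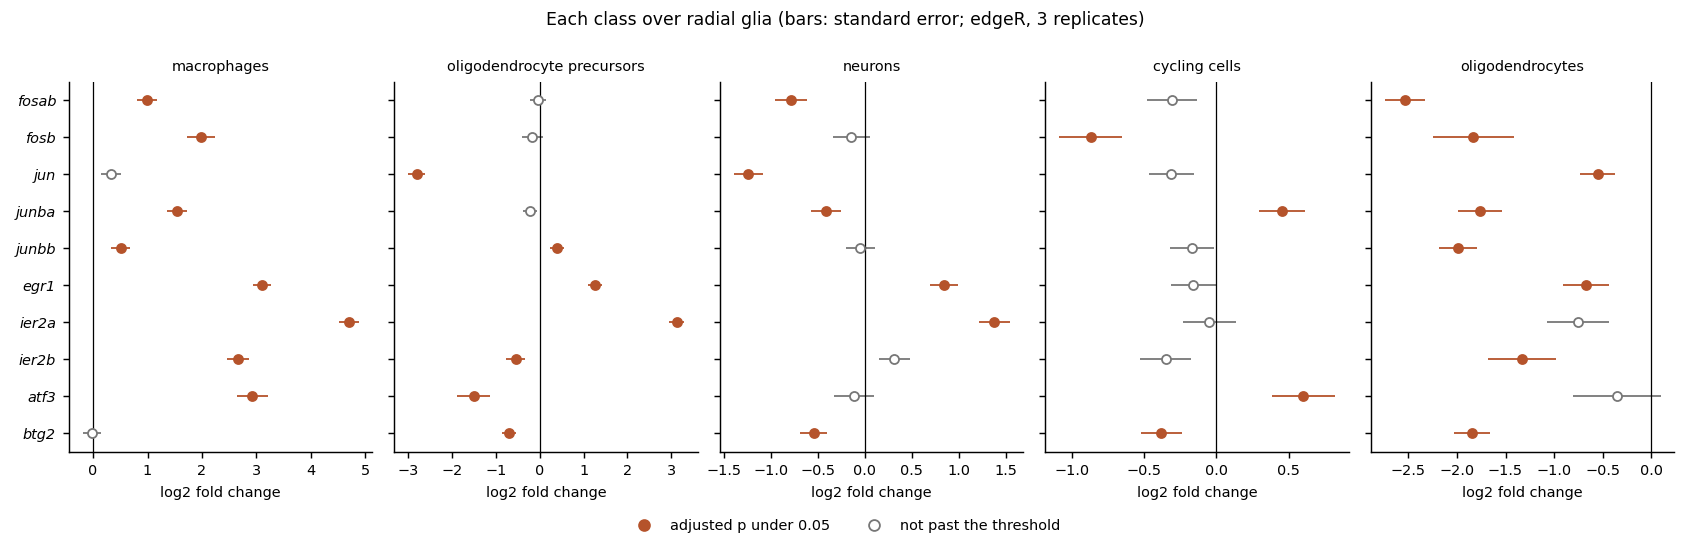
Log2 fold change of each gene in 5 classes over radial glia (horizontal axis, a separate scale for each class). Points are edgeR estimates from 3 replicates, bars are standard errors, and filled points passed the adjusted threshold. Macrophages have 8 filled points above 0 and oligodendrocytes 8 below 0, while oligodendrocyte precursor cells run from -2.80 for jun to 3.12 for ier2a.

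fosab, the zebrafish counterpart of the AP-1 subunit gene Fos, was the gene with the most UMIs among the 10, 51723 in kept cells. Its level was 4614, 2809 and 3569.7 in macrophages, 1996, 1790.0 and 1668 in oligodendrocyte precursor cells, 1202, 1501 and 880.0 in neurons, 1604, 1874 and 1301 in cycling cells, 168, 534 and 184 in oligodendrocytes, and 2155, 2205 and 1426 in radial glia. Macrophages exceeded radial glia in all replicates without overlap (log2 fold change 0.99 ± 0.18 SE, adjusted p = 6.4e-06). Neurons were lower than radial glia in 3 of 3 replicates, although their ranges overlapped (-0.78 ± 0.17, adjusted p = 7.25e-05). Oligodendrocytes were 5.81-fold lower (-2.54 ± 0.21, adjusted p = 5.38e-17). Oligodendrocyte precursor cells, of the same lineage as oligodendrocytes, did not pass against radial glia (-0.04 ± 0.17, adjusted p = 0.898), nor did cycling cells (-0.31 ± 0.17, adjusted p = 0.147).

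fosb, a close relative of Fos that pairs with Jun proteins in the same way, was rare outside macrophages. It stood at 599, 237 and 186 in macrophages, against 180.3, 55.2 and 42.9 in radial glia, which was 3.95-fold higher (log2 fold change 1.98 ± 0.26, adjusted p = 3.13e-09). It was lower in cycling cells, at 69.2, 39.1 and 32.5 (-0.87 ± 0.22, adjusted p = 0.000744), and in oligodendrocytes, at 16.4, 40.6 and 4.48 from 4, 12 and 1 UMIs (-1.83 ± 0.42, adjusted p = 0.000295). Both of these calls ended without replicate 1, the library in which fosb was highest in radial glia. In neurons fosb was at 119.6, 72.4 and 52.5 (-0.14 ± 0.20, adjusted p = 0.561). In oligodendrocyte precursor cells it was at 177, 23.7 and 23.3 (-0.17 ± 0.23, adjusted p = 0.6), and without replicate 1 it passed as lower (-1.12, adjusted p = 0.00384).

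jun, the gene of the AP-1 subunit that can pair with itself or with Fos, separated the classes in another order. Its level was 69.8, 89 and 104 in oligodendrocyte precursor cells, against 747, 756 and 354 in radial glia. This was 6.98-fold lower (log2 fold change -2.80 ± 0.19, adjusted p = 3.03e-20), in the same cells in which fosab did not differ detectably from radial glia. Neurons held 263, 389.8 and 186, lower in 3 of 3 replicates (-1.24 ± 0.16, adjusted p = 3e-10). Oligodendrocytes, at 373, 358 and 381, had the narrowest range of any class and passed as lower than radial glia in only 2 of 3 replicates (-0.55 ± 0.18, adjusted p = 0.0129), a call that ended without replicate 1, without replicate 2, without the replicate block and with DESeq2. In macrophages jun was at 723, 784 and 650.0, overlapping radial glia (0.32 ± 0.18, adjusted p = 0.183), and it passed as higher without replicate 1 (0.57, adjusted p = 0.0033). In cycling cells it was at 481, 627 and 404 (-0.31 ± 0.16, adjusted p = 0.101) and passed as lower without replicate 3 (-0.50, adjusted p = 0.0412).

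junba and junbb are a pair of zebrafish copies of JunB, an AP-1 subunit gene that in mammals can restrain the activity of Jun. Reads that match both copies could be lost or split by the counting, so each copy's level is uncertain to that extent. junba was at 1159.7, 862 and 1001 in macrophages, against 346, 470.4 and 261 in radial glia, and the groups did not overlap (log2 fold change 1.55 ± 0.18, adjusted p = 5.12e-11). It was higher in cycling cells in 3 of 3 replicates, at 503, 613 and 394 (0.45 ± 0.16, adjusted p = 0.0156), a call that ended without replicate 3. It was lower in neurons, at 283, 347 and 225 (-0.41 ± 0.16, adjusted p = 0.0219), and lower in oligodendrocytes, at 57.4, 172 and 44.8 (-1.76 ± 0.23, adjusted p = 1.21e-09). The neuron call ended without the replicate block, with total UMIs as library size and with DESeq2. In oligodendrocyte precursor cells junba was at 269, 305 and 322 (-0.22 ± 0.17, adjusted p = 0.312).

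junbb differed between libraries in every class. It was at 711, 1180.0 and 898 in macrophages, 583, 1333 and 816 in oligodendrocyte precursor cells, 426, 1223 and 594 in neurons, 473, 1007 and 456 in cycling cells, 61.5, 331 and 98.6 in oligodendrocytes, and 519, 1128 and 479 in radial glia. Replicate 2 was the highest in all 6 classes. Within replicates, macrophages were higher than radial glia in 3 of 3 (log2 fold change 0.50 ± 0.17, adjusted p = 0.0199), a call that ended without replicate 2 or replicate 3. Oligodendrocyte precursor cells were also higher in 3 of 3 (0.40 ± 0.15, adjusted p = 0.0311), a call that ended without replicate 3. Oligodendrocytes were 3.97-fold lower than radial glia (-1.99 ± 0.20, adjusted p = 1.71e-13), while neurons (-0.04 ± 0.15, adjusted p = 0.82) and cycling cells (-0.17 ± 0.15, adjusted p = 0.384) did not pass.

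atf3, a stress-induced factor gene of the ATF family whose protein pairs with Jun, had the fewest UMIs of the 10 genes, 981 in kept cells. It was at 125, 192 and 155 in macrophages, against 34.7, 23.2 and 13.8 in radial glia, which was 7.59-fold higher without overlap (log2 fold change 2.92 ± 0.29, adjusted p = 1.27e-13). Cycling cells, at 45, 39.1 and 28.5, were higher in 3 of 3 replicates (0.60 ± 0.22, adjusted p = 0.0215), and this call ended without replicate 2 or replicate 3. Oligodendrocyte precursor cells, at 9.97, 1.98 and 12.7 from 10, 1 and 6 UMIs, were lower in 3 of 3 replicates (-1.50 ± 0.38, adjusted p = 0.000729). Neurons, at 27.8, 23.7 and 18.9, and oligodendrocytes, at 20.5, 16.9 and 13.4, did not pass (adjusted p = 0.661 and 0.614).

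egr1, whose zinc finger protein is induced with neuronal activity and growth factors, was highest in macrophages, at 1609, 694 and 846, against 166, 110.4 and 87.4 in radial glia. The difference was 8.61-fold (log2 fold change 3.11 ± 0.17, adjusted p = 3.81e-25). It was higher than in radial glia in oligodendrocyte precursor cells, at 359, 283 and 216 (1.27 ± 0.16, adjusted p = 4.5e-10), and in neurons, at 303, 218 and 172 (0.85 ± 0.15, adjusted p = 1.26e-06), with no overlap in either case. These 2 classes overlapped each other. In cycling cells egr1 was at 115, 105 and 101 (-0.16 ± 0.16, adjusted p = 0.443). In oligodendrocytes it was at 69.7, 81.2 and 49.3 (-0.67 ± 0.24, adjusted p = 0.0248), a call of lower that ended without replicate 1 or replicate 3, without the replicate block and with DESeq2.

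ier2a, which encodes a nuclear regulator induced by growth factors, separated the classes most clearly. Its level was 1397, 1388 and 1372 in macrophages, 441, 475 and 529.9 in oligodendrocyte precursor cells, 129.9, 175 and 161 in neurons, 60.02, 58.4 and 50.3 in cycling cells, 32.8, 40.6 and 13.4 in oligodendrocytes, and 58, 67.2 and 42.9 in radial glia. The first 3 of these classes overlapped neither each other nor radial glia. Over radial glia, macrophages were 25.9-fold higher (log2 fold change 4.70 ± 0.18, adjusted p = 1.21e-33), oligodendrocyte precursor cells 8.68-fold higher (3.12 ± 0.17, adjusted p = 3.14e-25) and neurons 2.6-fold higher (1.38 ± 0.16, adjusted p = 4.35e-11). Oligodendrocytes did not pass (-0.75 ± 0.32, adjusted p = 0.0687), although each replicate was lower and the call was made with total UMIs as library size, without the filter on low counts or with a stricter marker gate.

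ier2b, the other zebrafish copy, is subject to the same uncertainty of shared reads as the JunB pair. It was at 511, 306 and 433 in macrophages, against 78.2, 73.6 and 45.2 in radial glia, which was 6.32-fold higher (log2 fold change 2.66 ± 0.21, adjusted p = 8.48e-18). In oligodendrocyte precursor cells, where ier2a was higher, ier2b was at 40.9, 33.6 and 61.5 and passed as lower, in 2 of 3 replicates (-0.55 ± 0.22, adjusted p = 0.038). This call ended under 8 of 12 alternatives. In oligodendrocytes ier2b was lower, at 28.7, 30.4 and 8.96 (-1.33 ± 0.35, adjusted p = 0.00157). Neurons, at 82.5, 92.9 and 85.7, did not pass (0.32 ± 0.16, adjusted p = 0.0859) except without replicate 1 (0.49, adjusted p = 0.0102) and with total UMIs as library size (0.41, adjusted p = 0.0281). Cycling cells, at 53.3, 58 and 47.1, did not pass either (-0.35 ± 0.18, adjusted p = 0.107).

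btg2, the antiproliferative gene of the set, was the only one of the 10 with its highest mean in radial glia. It was at 761, 535 and 444 in macrophages, against 667, 702 and 445 in radial glia, and did not pass (log2 fold change -0.02 ± 0.17, adjusted p = 0.941). It was lower than in radial glia in neurons, at 375, 595 and 359 (-0.54 ± 0.14, adjusted p = 0.000699), and in oligodendrocyte precursor cells, at 350.0, 376 and 367 (-0.70 ± 0.15, adjusted p = 8.43e-05). It was lower in oligodendrocytes, at 139, 186 and 125, without overlap (-1.84 ± 0.19, adjusted p = 3.63e-13). In cycling cells btg2 was at 476, 527 and 415 and passed as lower in 3 of 3 replicates (-0.38 ± 0.14, adjusted p = 0.0245), a call that ended without replicate 2. All 4 calls in cycling cells (fosb, junba, atf3 and btg2) ended without the replicate block and with DESeq2.

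The share of cells with a UMI was compared after thinning every cell to 1000 UMIs, which left out 155 of 2000 radial glia, 1076 of 6404 neurons, 170 of 1141 oligodendrocyte precursor cells, 57 of 265 macrophages, 33 of 278 oligodendrocytes and 7 of 1650 cycling cells. A UMI of at least 1 of the 10 genes was found in 95.03 ± 5.5% of macrophages, 89.97 ± 3.5% of oligodendrocyte precursor cells, 81.4 ± 5.5% of neurons, 85.6 ± 2.6% of cycling cells, 58.0 ± 9.1% of oligodendrocytes and 81.5 ± 3.2% of radial glia (SD, n = 3). For fosab alone the share was 76.3 ± 9.7% in macrophages, 66.4 ± 2.9% in oligodendrocyte precursor cells, 50.7 ± 8.0% in neurons, 62.3 ± 3.0% in cycling cells and 59.2 ± 5.2% in radial glia, and 14.1 ± 1.5% in oligodendrocytes. No class is known to lack these transcripts, and the oligodendrocyte share was the lowest. Oligodendrocytes had a median of 2568 UMIs per cell before thinning and radial glia 1796. ier2a was found in 63.0 ± 9.8% of macrophages and 29.8 ± 1.7% of oligodendrocyte precursor cells, against 4.83 ± 0.56% of radial glia. Without thinning, 89.4% of radial glia and 82.4% of oligodendrocytes held a UMI of at least 1 of the genes.

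Radial glia differed among themselves. At 1000 UMIs per cell their median was 4, 3 and 2 UMIs of the 10 genes in replicates 1, 2 and 3, and the highest cell held 31, 51 and 27. The top 10% of the cells held 32.9%, 37.0% and 34.8% of these UMIs. This was not particular to radial glia. The share was 38.0%, 31.2% and 36.9% in neurons and 31.1%, 32.2% and 33.2% in cycling cells. It was 29.2%, 27.4% and 30.6% in oligodendrocyte precursor cells. The share that counting error alone would give was not computed. Some of the genes were found together in 3 of 3 replicates: jun was detected in 50.8%, 51.5% and 36.2% of radial glia with a fosab UMI, against 26.6%, 22.3% and 17.9% of those without. junbb was detected in 43.9%, 66.6% and 39.6% of cells with a fosab UMI, against 14.4%, 27.4% and 17.1% of those without. ier2a was found more often with fosab in 2 of 3 replicates: its share was 5.51%, 5.90% and 4.10% with fosab, against 3.60%, 4.65% and 4.47% without. Ordered pairs of the genes were counted where at least 20 cells of each replicate held the first gene. The second gene was detected more often with the first in 3 of 3 replicates for 55 of 72 pairs in radial glia. The counts were 78 of 90 in neurons, 52 of 72 in cycling cells and 32 of 54 in oligodendrocyte precursor cells. Detection was less frequent in 3 of 3 replicates for 0, 0, 1 and 2 pairs in these classes. A pair could enter in both orders, which always share a direction. Pairs of other genes were not counted, so no background share stands beside these counts. The cells of a replicate share 1 library, so these counts describe the libraries and carry no p.

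Radial glia were next split by further markers, each split drawn from the same 2000 cells, and tested within replicates in the same way. The first split followed ascl1a, a proneural factor gene, and ccnd1, which encodes cyclin D1: 1085 cells with a UMI of both were set against 472 with neither. Cells with UMIs of only 1 of these genes were left out. In the double-positive cells 7 of the 10 genes were higher and 1 was lower, where 13.4% of 5959 tested genes were higher and 13.1% lower. junba was at 417, 634 and 302 in double-positive cells, against 178, 179.8 and 155 in double-negative cells, without overlap (log2 fold change 1.43 ± 0.17, adjusted p = 5.44e-09). jun was at 893, 912 and 432, against 545, 348 and 178 (1.18 ± 0.16, adjusted p = 1.45e-07), and btg2 at 754, 841 and 522, against 464, 377 and 254 in double-negative cells (1.04 ± 0.16, adjusted p = 7.62e-07). Each of these 3 genes rose in 3 of 3 replicates.

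The other AP-1 genes were less even. fosab was at 2241, 2608 and 1532 in double-positive cells, against 1915, 1138 and 953 in double-negative cells (log2 fold change 0.78 ± 0.17, adjusted p = 0.000468), and junbb at 575, 1338 and 516, against 390.4, 673 and 394 (0.74 ± 0.16, adjusted p = 0.000217). Both calls ended without replicate 2. ier2b was higher, at 94.8, 93.7 and 51.3 against 52.4, 48.5 and 32.1 (0.92 ± 0.24, adjusted p = 0.00349), and egr1, at 168, 133 and 95.1 against 159.8, 65.6 and 64.3, passed narrowly (0.54 ± 0.20, adjusted p = 0.0417). The ier2b call ended without replicate 2 and the egr1 call without replicate 2 or replicate 3. ier2a went the other way, at 42.5, 55.6 and 21.1 in double-positive cells, against 83.8, 79.9 and 81.8 in double-negative cells, without overlap (-0.98 ± 0.26, adjusted p = 0.003), a call that ended without replicate 3. fosb (-0.47 ± 0.22, adjusted p = 0.11) and atf3 (-0.80 ± 0.39, adjusted p = 0.13) did not pass, and each was lower in 3 of 3 replicates. The count of 8 was 4 without replicate 2, 5 with DESeq2 and 2 without the replicate block. Median UMIs per cell were 1779 in double-positive and 2027 in double-negative cells, and the median mitochondrial share was 1.39% and 1.65%. Among cells of 1500 to 3000 UMIs 6 genes passed, where the medians were still 1962 and 2176 UMIs.

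The second split took cells with at least 3 UMIs from at least 2 of pnp6, lgals2a, vamp5 and cspg5b, the first or second of them included. The gene pnp6 marks a quiescent stem cell population that the study found enriched caudally. There were 386 such cells against 1614 other radial glia. Here 5 genes were lower and 0 higher, where 13.9% of 6513 tested genes were lower and 16.5% higher. jun was at 474, 532 and 259 in these cells, against 816, 890.5 and 402 in the other radial glia (log2 fold change -0.70 ± 0.10, adjusted p = 9.67e-05). junba was at 183, 319 and 195, against 387, 561 and 295 in the other radial glia (-0.79 ± 0.12, adjusted p = 0.000166). fosab, at 1629, 1661 and 1243 against 2286, 2532 and 1519, fell by 0.43 on the log2 scale (SE 0.10, adjusted p = 0.00285). junbb fell by 0.42 (SE 0.10, adjusted p = 0.00448) and btg2 by 0.48 (SE 0.11, adjusted p = 0.00314), and each of the 5 genes was lower in 3 of 3 replicates. fosb, egr1, ier2a, ier2b and atf3 did not pass, with log2 fold changes from -0.63 for ier2b (adjusted p = 0.0623) to 0.71 for atf3 (adjusted p = 0.0952). ier2b passed as lower under 5 alternatives, among them leaving out replicate 3 (-0.97, adjusted p = 0.0092).

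The cells of the second split were deeper, with a median of 2939 UMIs against 1662 in the other radial glia, and median mitochondrial shares of 1.49% and 1.43%. Among cells of 1500 to 3000 UMIs all 5 genes still passed, with log2 fold changes of -0.71 for fosab, -0.91 for jun, -1.06 for junba, -0.69 for junbb and -0.79 for btg2. Within that range the medians still differed, at 2367 UMIs against 1936, and so did the mitochondrial shares, at 1.69% against 1.47%. The part of depth and mitochondrial share in these differences was therefore not tested in full. Without replicate 2 the calls of fosab and junbb ended, and without the replicate block 0 of the 5 passed.

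The third split took 285 radial glia with a UMI of gsx2 or nkx2.1, factor genes of the subpallium, against 1715 others. fosab was at 2907, 3665 and 2288 in these cells, against 1984, 2016 and 1239 in the other radial glia, without overlap (log2 fold change 0.76 ± 0.08, adjusted p = 2.7e-09). fosb was at 323, 62.9 and 81.6, against 148, 54.2 and 34.5 in the other radial glia (1.01 ± 0.20, adjusted p = 0.000244), and jun at 874, 1112 and 438, against 719, 710.0 and 336 (0.43 ± 0.11, adjusted p = 0.00826). These were 3 genes higher and 0 lower, where 3.28% of 6774 tested genes were higher and 3.16% lower. Both fosb and jun lost their calls without replicate 1 and with DESeq2. The jun call also ended without replicate 3, without the filter on low counts, with the stricter marker gate and among cells of 1500 to 3000 UMIs. Without the replicate block all 3 calls ended. Median UMIs per cell were 1957 in the gsx2 or nkx2.1 cells and 1775 in the other radial glia, and the median mitochondrial share was 1.17% and 1.49%. Among cells with at most 5% mitochondrial UMIs all 3 calls stood. That limit kept 282 of the 285 cells and 1667 of the 1715 others, so it could hardly test the difference in mitochondrial share. junba, junbb and btg2, lower in the second split, had log2 fold changes of -0.11, 0.00 and 0.26 here and did not pass (adjusted p = 0.829, 0.998 and 0.227).

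In the last 2 splits few of the genes or none passed. Radial glia with UMIs of timp4.3 and igfbp2a, genes of astrocyte-like cells, or with at least 2 UMIs of timp4.3, numbered 949 against 1051. btg2 was at 716, 763 and 470.2 in them, against 591, 640.1 and 425 in the other radial glia (log2 fold change 0.34 ± 0.09, adjusted p = 0.0108). Median UMIs per cell were 2062 and 1590, and median mitochondrial shares 1.59% and 1.31%. btg2 was the only call, where 7.37% of 6538 tested genes were higher and 5.6% lower, and it ended under 7 of 12 alternatives, among them leaving out replicate 2 or replicate 3. The other 9 genes had log2 fold changes from -0.32 for ier2a to 0.32 for fosb. Radial glia with a UMI of the proneural genes neurod4 or neurog1 numbered 72, with 20, 19 and 33 per replicate. By edgeR 0 of the 10 genes passed, where 0.419% of 6685 tested genes were higher and 1.03% lower, and 0 passed with DESeq2. fosab was the 1 gene with an unadjusted p under 0.05, at 1299, 2665 and 1134 in these cells, against 2177, 2187 and 1447 in the other radial glia (-0.39 ± 0.15, adjusted p = 0.248, with a median of -0.15 over all genes). It passed as lower without the filter on low counts (-0.63) and with a stricter marker gate (-1.46), which left only 5, 5 and 6 such cells. It also passed among cells of 1500 to 3000 UMIs (-0.83), with 11, 9 and 16 such cells.

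**Figure D3:**
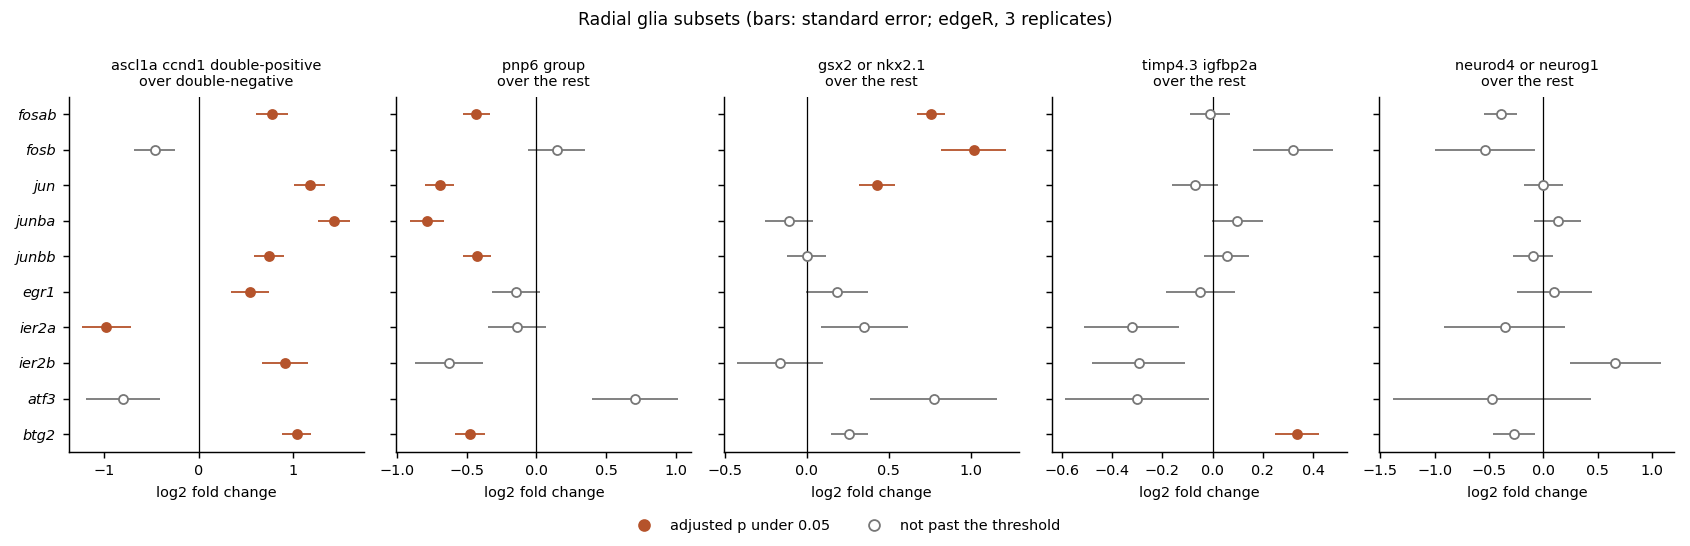
Log2 fold change of each gene in 5 splits drawn from the same 2000 radial glia (horizontal axis, a separate scale for each split): ascl1a ccnd1 double-positive over double-negative cells, and each other subset over the remaining radial glia. Points are edgeR estimates from 3 replicates, bars are standard errors, and filled points passed the adjusted threshold. There are 8 filled points in the first split, 5 in the pnp6 split, all below 0, 3 in the gsx2 or nkx2.1 split, 1 in the timp4.3 igfbp2a split and 0 in the neurod4 or neurog1 split.

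The 3 libraries were then compared class by class. With 1 library per sorting day there is no test of such a difference, and ratios are given with exact 95% counting intervals. Summed over the 10 genes, radial glia of replicate 1 were 1.55 times (1.49 to 1.61) and those of replicate 2 1.75 times (1.68 to 1.82) the level of replicate 3. Among genes with at least 20 CPM on average, 7 of the 10 were at least 1.5-fold higher in replicate 1 than in replicate 3, where 12.1% of 5602 genes were. In replicate 2 over replicate 3 there were 8 of 10, where 5.73% of genes were. Between replicates 2 and 1, 1 gene was higher and 2 were lower in replicate 2, where 13.1% of genes were higher and 13.1% lower. Radial glia of replicate 3 thus held less of most of the 10 genes than those of the other libraries.

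In neurons the summed level went in the same direction, but single genes were less even. The summed ratios were 1.17 (1.14 to 1.21) for replicate 1 over 3 and 1.70 (1.65 to 1.74) for replicate 2 over 3. In replicate 1, 2 of the 10 genes were at least 1.5-fold higher than in replicate 3, where 11.8% of 5840 genes were. fosab, jun, junba and atf3 had ratios from 1.26 to 1.47 there. junbb, at 0.717 (0.673 to 0.764), and ier2a, at 0.805 (0.714 to 0.909), went the other way. The intervals of ier2b and btg2 included 1. In replicate 2, 5 genes were higher than in replicate 3, where 3.84% of genes were. Replicate 2 over 1 gave 2 genes higher and 1 lower, where 7.64% of genes were higher and 11.8% lower. The other classes were uneven: the summed ratio of replicate 2 over 3 was 1.53 (1.49 to 1.58) in cycling cells, 1.14 (1.08 to 1.21) in oligodendrocyte precursor cells, 1.94 (1.65 to 2.29) in oligodendrocytes and 0.941 (0.871 to 1.02) in macrophages.

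Single genes did not follow 1 library order. fosb was 4.2 times (3.14 to 5.70) as high in replicate 1 as in replicate 3 in radial glia, 2.28 times (1.90 to 2.75) in neurons, 7.57 times (4.13 to 15.4) in oligodendrocyte precursor cells and 3.22 times (1.84 to 5.89) in macrophages. junbb instead stood out in replicate 2, at 2.17 times (1.99 to 2.37) its level in replicate 1 in radial glia, 2.13 times (1.94 to 2.34) in cycling cells, 2.87 times (2.74 to 3.02) in neurons and 2.29 times (2.04 to 2.56) in oligodendrocyte precursor cells. jun was 2.11 times (1.89 to 2.36) as high in replicate 1 as in replicate 3 in radial glia, whereas in oligodendrocyte precursor cells its ratio was 0.672 (0.460 to 0.989). Sorting day and pool of fish move with these ratios, and their part was not tested.

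**Figure D4:**
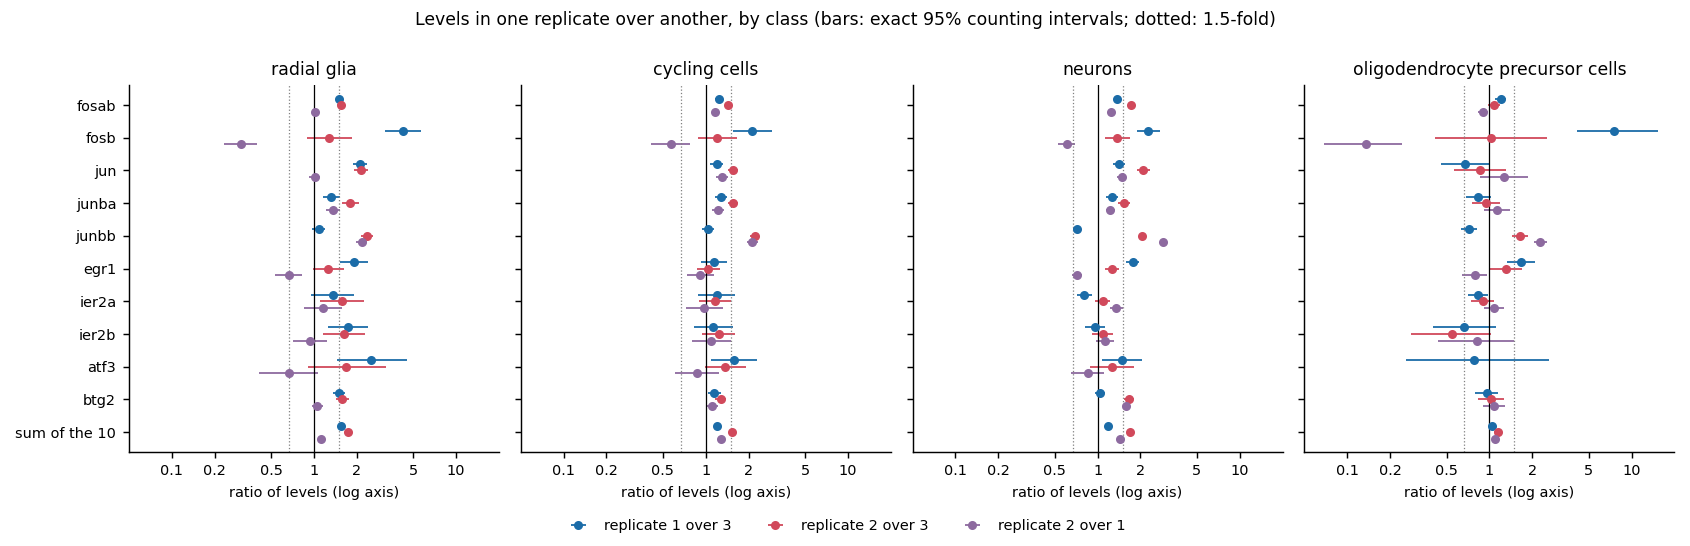
Ratio of a gene's level between 2 replicates (horizontal log axis) in 4 classes, with exact 95% counting intervals and dotted lines at 1.5-fold. Pairs with fewer than 3 UMIs in either library are left out. In radial glia the sum of the 10 genes lies at 1.55 for replicate 1 over 3 and at 1.75 for replicate 2 over 3, while fosb is high in replicate 1 and junbb in replicate 2 in each of the 4 classes.

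Within a library the levels also moved with the mitochondrial share and the UMIs per cell. Radial glia subsets differed in both measures too, and their part in these trends was not tested. When the radial glia of a replicate were split into 4 bins of equal cell number by mitochondrial share, the summed level from the lowest to the highest bin was 7193, 5525, 4706 and 2843 in replicate 1, 7428, 6153, 4708 and 4037 in replicate 2, and 4209, 3100.3, 3041 and 2467 in replicate 3. It was lower with each higher bin in every replicate. Neurons did not share this order: theirs was 2608, 3399, 3532 and 3344 in replicate 1, 3633, 4468, 5512 and 4798 in replicate 2, and 1926, 2677, 3245 and 3255 in replicate 3. Oligodendrocyte precursor cells were lower in the highest bin, at 3883, 4520 and 3268, than in the lowest, at 4479, 5130 and 5171. Cycling cells were mixed, with 4191, 4794 and 3169 in the highest bin and 3767, 5781 and 3701 in the lowest. By UMIs per cell, radial glia of the shallowest bin held 6312, 6845 and 4341 in replicates 1, 2 and 3 and those of the deepest bin 3804, 4834 and 2604. The level fell with each deeper bin in replicates 1 and 3. In replicate 2 it did not fall steadily, at 6845, 8195, 4351 and 4834. Cycling cells shared this direction, with 5330, 6533 and 4437 in the shallowest bin and 3034, 4458 and 2827 in the deepest. Neurons had 2746, 4213 and 2767 in the shallowest bin and 3587, 5171 and 2777 in the deepest. Oligodendrocyte precursor cells had 3297, 3326 and 4239 in the shallowest bin and 5151, 5235 and 4219 in the deepest. Among cells of 1500 to 3000 UMIs, 43 of the 50 calls above stood, and among cells with at most 5% mitochondrial UMIs all 50 stood. That second limit kept 1949 of 2000 radial glia, so it could not test the trend over their mitochondrial bins. The first limit did not make the depth of compared groups equal, as given above for the pnp6 split.

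**Figure D5:**
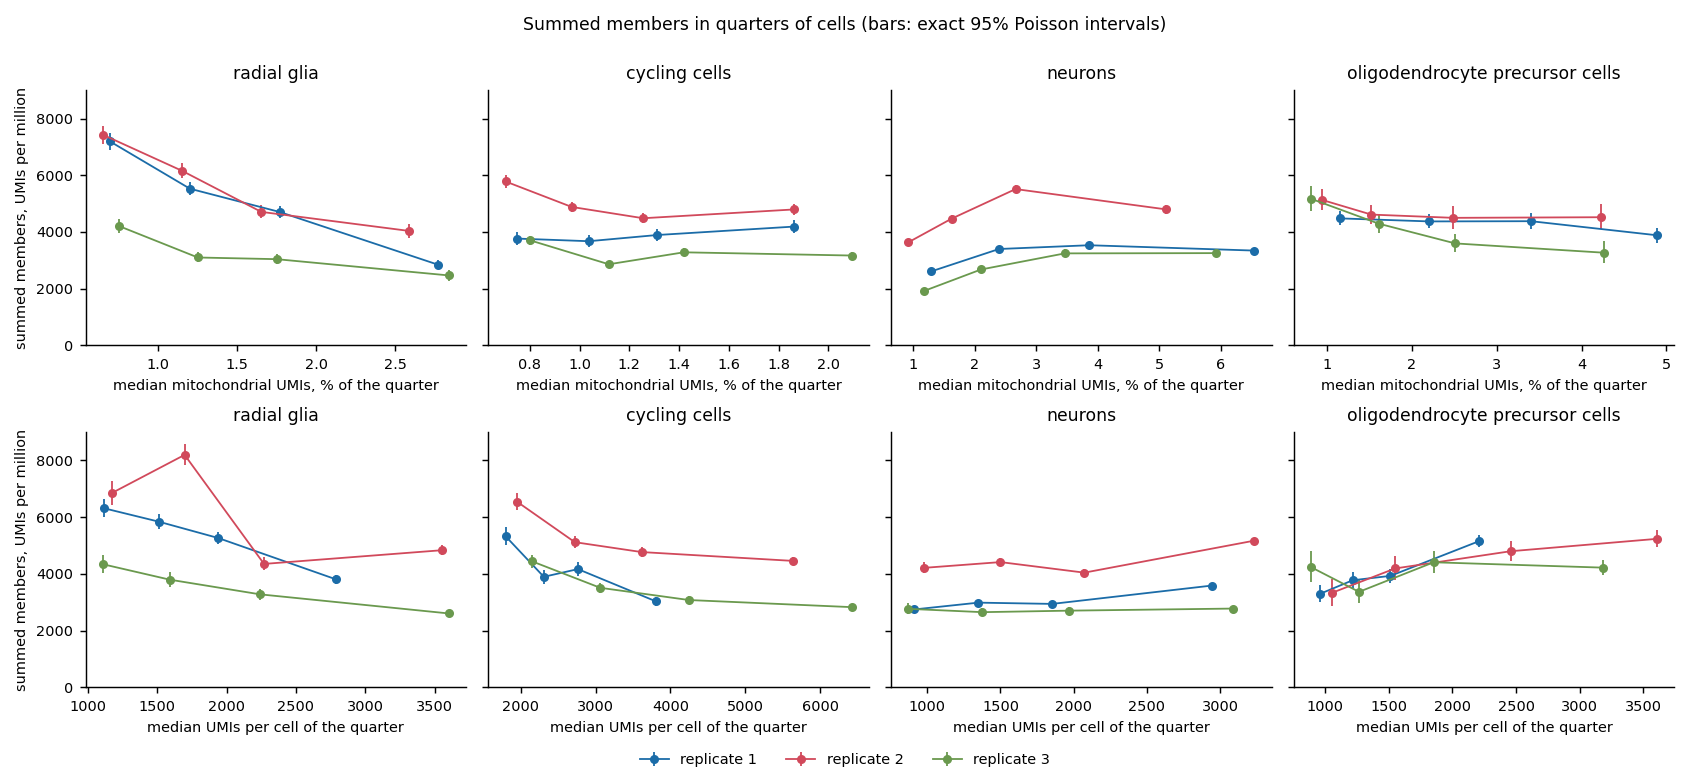
Summed level of the 10 genes in UMIs per 1000000 UMIs (vertical axis) in 4 equal bins of the cells of a class, against the median mitochondrial share in percent (upper row) or the median UMIs per cell (lower row) of the bin. Points are bins of 1 replicate with exact 95% Poisson intervals, joined by lines. In radial glia the points run down with the mitochondrial share in all 3 replicates, to 2843, 4037 and 2467 in the highest bin, and in neurons they do not.

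Other genes of the same responses were counted in lists that name none of the 10. Of 18 further AP-1, ATF and EGR factor genes in the files, 12 were tested between classes. In macrophages 11 were higher and 0 lower than in radial glia (median log2 fold change 2.66, against -0.39 over all genes), among them fosl2, a Fos relative, at 436, 208 and 124 against 17.6, 14.4 and 10.7. In neurons 8 were higher and 2 lower (median 1.45, against 0.08). egr4, a relative of egr1, was at 1411, 2127 and 1205 in neurons, against 258, 364 and 185 in radial glia (2.48 ± 0.17). In the same cells jdp2b, which encodes a protein that pairs with Jun, was at 19.8, 15.9 and 20.8 in neurons, against 150.6, 171 and 65.1 in radial glia. In oligodendrocyte precursor cells 1 was higher, egr4 at 2304, 2821 and 2149 (3.24 ± 0.18), and 3 were lower (median -0.06, against -0.03). In cycling cells 3 were higher and 0 lower (median -0.01, against -0.02), and in oligodendrocytes 3 and 1 (median 0.25, against -0.21). The shares of all tested genes called in each class, given above with the 10 genes, apply to these lists too.

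Of 37 other primary-response genes, 27 were tested between classes. Higher and lower were 10 and 5 in macrophages (median 0.90, with 12.8% and 18.3% of all genes called), 4 and 11 in oligodendrocyte precursor cells (median -0.50, with 21.4% and 22.2%), 12 and 10 in neurons (median -0.02, with 30.1% and 28.4%), 3 and 8 in cycling cells (median -0.25, with 20.7% and 22.0%), and 3 and 8 in oligodendrocytes (median -0.19, with 12.3% and 18.0%). cebpd, which encodes a CCAAT-binding factor of inflammatory responses, was among the lower genes in neurons: it was at 66.9, 41.4 and 42.7 in neurons, against 1617, 1091 and 881 in radial glia (log2 fold change -4.65 ± 0.18). npas4a, a factor gene of neuronal activity in mammals, was at 182, 151 and 100.1 in neurons, against 33.4, 8.80 and 13 in radial glia (2.90 ± 0.23). Of 27 feedback regulators, 24 were tested, with the same shares of all genes as background. Here 14 were higher and 4 lower in macrophages (median 0.97), 4 and 10 in oligodendrocyte precursor cells (median -0.35), 5 and 15 in neurons (median -1.11), 4 and 14 in cycling cells (median -0.61), and 6 and 12 in oligodendrocytes (median -0.56). dusp2, a phosphatase gene that acts on MAP kinases, was at 1097, 1200.4 and 1300.0 in macrophages, against 58, 71.2 and 18.4 in radial glia. Of 19 heat shock genes, 17 were tested, and 6 were higher and 2 lower in macrophages (median 0.61), 4 and 5 in oligodendrocyte precursor cells (median -0.37), 8 and 5 in neurons (median 0.59), 6 and 6 in cycling cells (median -0.38), and 4 and 3 in oligodendrocytes (median 0.54).

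Within radial glia the ascl1a ccnd1 double-positive cells had 1 of 6 AP-1, ATF and EGR genes higher and 1 lower (median 0.26), 5 of 17 primary-response genes higher and 1 lower (median 0.50), 7 of 19 feedback regulators higher and 4 lower (median 0.39), and 1 of 11 heat shock genes higher and 4 lower (median -0.57). Of all genes tested in this split, 13.4% were higher and 13.1% lower, with a median of 0.03. dusp1, another MAP kinase phosphatase gene, was at 65.6, 61.5 and 57.4 in double-positive cells, against 15.7, 14.3 and 8.77 in double-negative cells (log2 fold change 2.30 ± 0.35, adjusted p = 1.06e-06 by edgeR). hsp70.2, a heat shock gene, was at 15.8, 11.7 and 4.53, against 65.5, 62.8 and 32.1 in double-negative cells (-2.22 ± 0.35, adjusted p = 2.07e-06). The double-negative sums held 381647, 350478 and 342220 UMIs of all genes, and the double-positive sums 823151, 683305 and 662467. The lower levels of both genes therefore rest on few UMIs. In the pnp6 split these counts were 0 higher and 1 lower of 7 (median -0.26), 3 and 7 of 17 (median -0.41), 2 and 6 of 20 (median -0.20), and 4 and 1 of 12 (median 0.20), where 16.5% of all genes were higher and 13.9% lower, with a median of -0.04. In the gsx2 or nkx2.1 split they were 0 and 0 of 6 (median 0.27), 1 and 1 of 19 (median 0.15), 4 and 0 of 20 (median 0.13), and 0 and 0 of 12 (median -0.09), where 3.28% of all genes were higher and 3.16% lower, with a median of -0.01. The feedback regulators that passed included socs3a, an inhibitor of cytokine signalling, at 231, 175 and 155 against 104, 78.6 and 68.1. In the timp4.3 igfbp2a split they were 0 and 2 of 7 (median 0.07), 4 and 1 of 17 (median 0.23), 5 and 2 of 20 (median 0.24), and 0 and 3 of 12 (median -0.26), where 7.37% of all genes were higher and 5.6% lower, with a median of 0.01. In the neurod4 or neurog1 split, where 0.419% of all genes were higher and 1.03% lower, 1 gene of the 4 lists passed, jdp2b as lower, at 0, 147 and 0 against 155, 172 and 69.7.

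The genes most like the 10 were sought in 2 ways, as descriptions with no p. Over the 18 class sums (6 classes in 3 replicates, which share libraries), the mean of the 10 standardized log2 levels correlated best with jdp2b (Pearson r = 0.917), psme2 (r = 0.917) and tln1 (r = 0.916) among 8707 genes, followed by si:dkey-112a7.4, crip1, pfkfb4a, cfp, psmb12, slc45a4 and plcb3 (r = 0.891). Of the 10 genes themselves, junba was closest to this mean (r = 0.952) and jun farthest from it (r = 0.398). Macrophages held the most of the 10 genes and oligodendrocytes the least, so any gene high in macrophages can rank high in this measure. How much of the ranking follows that contrast of classes was not tested. The second measure took 1845 radial glia thinned to 1000 UMIs, with UMIs as log(1 + UMIs). Its r is the mean over replicates of the Pearson correlation within each replicate. The summed UMIs of the 10 genes correlated best with gadd45ba (r = 0.423), a gene of growth arrest and DNA damage responses, among 2539 genes. CR383676.1 (r = 0.315), cebpd (r = 0.250), jdp2b (r = 0.243), zgc:110796 (r = 0.198), lfng (r = 0.197), socs3a (r = 0.189), dla (r = 0.170), sdc4 (r = 0.168) and ccnd1 (r = 0.161) followed. These are weak relations in sparse counts from cells that share a library.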

How the data were processed

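Cells were droplet-captured with a 3′ kit, and the authors aligned reads to GRCz11 and deposited the UMI counts per gene and cell barcode made by Cell Ranger. The 10 genes and all gene lists were chosen with earlier results of these data known. Barcodes with fewer than 200 genes, over 10% mitochondrial UMIs or an outlying gene number (loess, span 0.5, 3 SD) were removed, as were the highest Scrublet scores (scanpy 1.11.5), taken as doublets at 0.8% per 1000 cells. Gates asked for 3 to 10 marker UMIs from 2 to 4 genes. Radial glia also needed at least 3 times as many UMIs of their own markers as of neuron markers. Radial glia and neurons could hold at most 2 UMIs of cycling markers. The splits of radial glia were drawn after these limits. Within 1 UMI of the cut lay 86 of 265 macrophages, 120 of 1141 oligodendrocyte precursor cells, 1320 of 6404 neurons, 204 of 1650 cycling cells, 6 of 278 oligodendrocytes and 104 of 2000 radial glia. Where 1 of 743 repeated symbols was needed as a marker, the entry with more UMIs was taken.

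Counts were summed per class and replicate and tested with edgeR 4.0.16 in R 4.3.3 (quasi-likelihood, TMM, filterByExpr, Benjamini-Hochberg, threshold 0.05, two-sided). The replicate number was the block because the sums of 1 replicate come from the same fish and library. Genes named from the other lists were picked from the 3 largest rises and the 3 largest falls past the threshold in each list and comparison, and which of these were described was chosen after their values were seen. The 10 most correlated genes were named in full. An exact sign-flip test over 3 replicates cannot go below p = 0.25 and was not used. Alternatives were leaving out each replicate, no block, other library sizes, DESeq2 1.42.0, no filter, stricter gates, at most 5% mitochondrial UMIs and doublets kept. Cells of 1500 to 3000 UMIs and a floor of 50 CPM were chosen after seeing the data. Because of the block, the p-values set the differences within a replicate against how unevenly such differences came out over 3 sorting days. edgeR estimates this spread partly from all tested genes. A small p therefore does not rest on the 3 differences of 1 gene alone. They leave out the spread of levels between the days. In the class tests the spread was shared over all classes.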

Additional observations from a re-analysis of the deposited data

Results flagged for a closer look

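UMIs of the 10 genes were also found in barcodes outside the comparisons. In the cells that no marker gate took, 2108, 2078 and 1918 in replicates 1, 2 and 3, their summed level was 3935, 4479 and 3138 CPM. Barcodes left out for over 10% mitochondrial UMIs numbered 261, 162 and 172 and held 2811, 3106 and 2499 CPM. The 487, 279 and 209 barcodes left out for the highest doublet scores held 3766, 4481 and 3041 CPM. In all 3 sets replicate 2 was highest and replicate 3 lowest. This was also the order in radial glia, at 5591 in replicate 2, 4953 in replicate 1 and 3197 in replicate 3. Cycling cells, neurons, oligodendrocyte precursor cells and oligodendrocytes had the same order, and macrophages, at 12208, 8987 and 9554 in replicates 1, 2 and 3, did not.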

How the results depend on the processing

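Of 50 called values, 24 were called under every alternative and 0 changed direction. Without the replicate block 26 calls ended, with DESeq2 14, without replicate 2 12, without replicate 3 9 and without replicate 1 7. Without the replicate block the number of genes called was 0 in cycling cells, 5 in oligodendrocytes, 0 in the timp4.3 igfbp2a, pnp6 and gsx2 or nkx2.1 splits and 2 in the ascl1a ccnd1 split. With DESeq2 it was 0 in cycling cells, 0 in the timp4.3 igfbp2a split, 1 in the gsx2 or nkx2.1 split and 5 in the ascl1a ccnd1 split, and with total UMIs 0 in the timp4.3 igfbp2a split. In the neurod4 or neurog1 split it was 1 without the filter. It was 4 with the stricter gate, which left 16 such cells, and 1 in cells of 1500 to 3000 UMIs, with 36 such cells. Leaving out 1 replicate gave 6 to 7 in neurons, 2 to 3 in cycling cells, 6 to 7 in oligodendrocyte precursor cells, 5 to 7 in oligodendrocytes, 7 to 9 in macrophages, 0 to 1, 3 to 6, 1 to 3, 0 to 0 and 4 to 9 in the timp4.3 igfbp2a, pnp6, gsx2 or nkx2.1, neurod4 or neurog1 and ascl1a ccnd1 splits. The mean summed level was then 4075 to 5272 in radial glia, 3555 to 4414 in cycling cells, 2973 to 3925 in neurons, 4208 to 4503 in oligodendrocyte precursor cells, 945 to 1380 in oligodendrocytes and 9270 to 10881 in macrophages, and with the stricter gate it was 12456 in macrophages.

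The share of cells with any of the genes at 500 UMIs, with at least 2 UMIs, and without thinning was 68.8%, 65.7% and 89.4% in radial glia, 70.8%, 69.9% and 96.3% in cycling cells, 66.6%, 61.5% and 88.9% in neurons and 36.0%, 25.5% and 82.4% in oligodendrocytes. At 500 UMIs and with at least 2 UMIs it was 76.4% and 75.0% in oligodendrocyte precursor cells and 82.3% and 84.5% in macrophages. At 2-fold in radial glia, 3 of the 10 were higher in replicate 1 than 3 (196 of 5602 genes), 2 in replicate 2 than 3 (71 genes), and 1 was higher (153 genes) and 1 lower (234 genes) in replicate 2 than 1. In neurons these counts were 1 (152 of 5840 genes), 2 (52 genes), 1 higher (70 genes) and 0 lower (199 genes). At 1.5-fold over all cells of a library they were 2 (742 of 6074 genes), 2 (191 genes), 1 higher (418 genes) and 1 lower (713 genes). The cause of these differences was not tested. The rarest gene, atf3, is limited by depth, with 1 to 10 UMIs per replicate in oligodendrocyte precursor cells.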
